A study of Mus musculus with 12 samples.

Results

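The genes described here are the AP-1 factors Fos, Fosb, Fosl2, Jun, Junb, Jund and Atf3, the BATF factors Batf and Batf3, and Irf4. They were chosen by name as the rows of the deposited count table that carry these symbols, which gave 10 of the 25189 genes in the table. All 10 were found. The low-count filter kept 9 of them among the 13196 genes tested, and Batf3 was the member it removed.

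AP-1 is a pair of basic leucine zipper proteins, most often a FOS protein joined to a JUN protein, that binds a short DNA site in the control regions of genes induced by T cell activation. BATF proteins lack the activation domain of FOS and pair with JUN proteins instead, and in T cells BATF-JUN pairs bind DNA together with the interferon regulatory factor IRF4 at composite sites. In regulatory T cells (Treg cells), BATF and IRF4 are known for their part in the effector Treg state, while Fos, Fosb, Jun, Junb and Atf3 are immediate-early genes, whose transcripts also appear within minutes of handling and cell isolation.

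The study measured RNA by sequencing in splenic Treg cells, the Foxp3-expressing suppressor cells of the immune system, double-sorted as CD4+RFP+ or CD4+YFP+ cells from female mice 4 weeks of age, with 4 libraries in each of 3 groups. WT cells carried the Foxp3RFP allele. Foxp3-deficient cells carried the Foxp3∆EGFPiCre allele. Double-deficient cells carried Foxp3∆EGFPiCre together with Rictor∆/∆, the loss of a subunit of mTOR complex 2. The donor mice are given as Foxp3∆EGFPiCre/RFP R26YFP and Foxp3∆EGFPiCre/+ Rictor∆/∆ R26YFP females, in which R26YFP is a reporter in the Rosa26 locus. Females heterozygous at the X-linked Foxp3 locus still have cells that use the other Foxp3 allele. The deletion of Rictor rests on a Cre expressed from the Foxp3 locus. Of the donor mice given, only the Foxp3∆EGFPiCre/RFP females carry the Foxp3RFP allele, and only the others carry Rictor∆/∆. By these alleles, WT and Foxp3-deficient cells can come from the same females, and double-deficient cells come from the other donors. Rictor loss and donor type therefore cannot be told apart. Which single mouse a library came from is not stated. The sort reporter appears to go with the genotype, so these cannot be told apart either. It is also not stated that the libraries of a group came from separate mice, and p-values then measure only how these libraries vary. Library numbers are those of the labels (1, 3, 4 and 5, or 2, 3, 4 and 5 in the double-deficient group).

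Between 15769737 and 26114044 reads per library were assigned to genes. Foxp3 averaged 633 CPM (reads per gene scaled to a common library total) in WT cells, 118 without Foxp3 and 102 without Foxp3 and Rictor. Rictor averaged 148, 189 and 141 CPM, counted over the whole gene, which does not check the deletion of part of it. T cell and Treg markers were high in all 12 libraries, with a summed level of 5536 to 7781 CPM over 10 genes. Of the markers of other cells, 8 B cell genes summed to 1266 to 1495 CPM in the WT group, 673 to 836 in the Foxp3-deficient group and 776 to 944 in the double-deficient group, with Ms4a1 at 0 in the Foxp3-deficient group. The 8 myeloid genes summed to at most 3.74 CPM in any library, and 5 of 6 CD8 and NK cell genes to 25.1 to 29.0 CPM in the WT, 24.2 to 29.6 in the Foxp3-deficient and 32.6 to 35.2 in the double-deficient group. Reads without a unique alignment made up 25.9% to 28.5% of a WT library, 23.0% to 29.5% of a Foxp3-deficient library and 31.1% to 33.1% of a double-deficient library.

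The members lie on 7 chromosomes of the mouse genome (GRCm38, GENCODE M21). Fos and Batf are neighbours on chromosome 12, at chr12:85473890-85477273 and chr12:85686669-85709087, both on the forward strand. Batf3 (chr1:191097847-191108945, forward) and Atf3 (chr1:191170296-191218039, reverse) are neighbours on chromosome 1. Junb (chr8:84974484-84978718, reverse) and Jund (chr8:70698949-70700616, forward) share chromosome 8. Jun (chr4:95049034-95052222, reverse) has a single exon, as Jund has. Fosb is at chr7:19302696-19310051 on the reverse strand, Fosl2 at chr5:32135801-32157842 and Irf4 at chr13:30749226-30766976 on the forward strand. Jun, Junb and Jund each overlap exons of a gene on the opposite strand: 232 bases of Jun are shared with Junos, 173 bases of Junb with Prdx2 and 877 bases of Jund with Gm11175, which is not a row of the table. The strand setting of the counting is not given in the sources used here, so reads from those bases cannot be assigned with certainty.

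The promoters of Fos, Fosb, Jun and Junb are shown because these are the immediate-early genes among the members that rose in double-deficient against WT cells. Each window runs from 250 bases before to 50 after the RefSeq transcription start (GRCm38.p6) and is written 5′ to 3′ along the gene's strand. Capitals mark the short cAMP response element TGACG and the CRE-like element TGACNTCA, searched on both strands.
Fos (chr12:85473640-85473939, forward strand): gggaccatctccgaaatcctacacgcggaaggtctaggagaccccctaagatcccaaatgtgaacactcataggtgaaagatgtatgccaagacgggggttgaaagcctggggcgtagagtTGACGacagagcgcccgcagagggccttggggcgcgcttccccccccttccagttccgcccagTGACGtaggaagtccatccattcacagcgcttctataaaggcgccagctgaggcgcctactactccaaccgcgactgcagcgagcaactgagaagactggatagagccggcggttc
Fosb (chr7:19309996-19310295, reverse strand): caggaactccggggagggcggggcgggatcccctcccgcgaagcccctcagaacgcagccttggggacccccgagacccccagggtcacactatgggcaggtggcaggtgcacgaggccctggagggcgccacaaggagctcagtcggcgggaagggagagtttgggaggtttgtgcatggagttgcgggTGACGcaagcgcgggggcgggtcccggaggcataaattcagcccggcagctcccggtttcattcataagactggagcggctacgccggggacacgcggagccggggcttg
Jun (chr4:95052173-95052472, reverse strand): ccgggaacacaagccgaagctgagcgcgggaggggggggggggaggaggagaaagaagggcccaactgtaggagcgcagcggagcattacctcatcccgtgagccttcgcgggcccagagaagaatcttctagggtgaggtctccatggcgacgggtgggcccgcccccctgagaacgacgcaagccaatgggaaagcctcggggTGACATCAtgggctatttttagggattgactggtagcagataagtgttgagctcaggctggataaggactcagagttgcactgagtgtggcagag
Junb (chr8:84978699-84978998, reverse strand): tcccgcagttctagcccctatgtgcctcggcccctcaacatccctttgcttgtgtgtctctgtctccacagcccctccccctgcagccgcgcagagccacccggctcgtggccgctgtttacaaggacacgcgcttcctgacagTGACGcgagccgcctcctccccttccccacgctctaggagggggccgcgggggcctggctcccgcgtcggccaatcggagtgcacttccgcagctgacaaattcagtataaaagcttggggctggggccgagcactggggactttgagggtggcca
Fos holds TGACG 129 and 66 bases before its start, Fosb 60 bases before and Junb 106 bases before. The Jun window has no TGACG and holds TGACATCA, a match to TGACNTCA, 45 bases before its start. Among the other members, Batf holds TGACG 98 bases before its start and Atf3 7 bases before. TGACG is found in 20.8% of all 32851 promoter windows of the same length and TGACNTCA in 8.83%. No member's window holds the AP-1 site TGANTCA (7.81% of all windows), the full element TGACGTCA (1.79%, a sequence that TGACNTCA and TGACG also match) or a CArG box, the core of the serum response element (1.63%). Some RefSeq starts differ from the gene positions given above. The Jund window (chr8:70697489-70697788) ends before the gene position, and the windows of Fosl2, Batf3 and Atf3 (chr1:191183284-191183583) lie inside theirs. For these members the absence of a match holds only for the window used. Sequence beyond the windows was not searched, so a site more than 250 bases before a start would be missed. All matches given are matches of letters in a window and were not tested for binding.

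Junb was the most abundant member per length in all 3 groups. Counted in CPM per kilobase of exon, a scale on which genes can be compared, Junb averaged 1547 ± 529 in the WT group, 3248 ± 2346 in the Foxp3-deficient group and 4135 ± 377 in the double-deficient group (SD, n = 4). In WT cells the order of mean levels was Junb, Jund (437 ± 25.0), Jun (202 ± 114), Fos (187 ± 129), Batf (63.9 ± 6.63), Irf4 (7.17 ± 0.52), Fosb (0.82 ± 0.54), Fosl2 (0.55 ± 0.33) and Atf3 (0.25 ± 0.21). Jun and Fos lay within their spread of each other, as did Fosb and Fosl2. In double-deficient cells Fos (926 ± 111) stood above Jund (686 ± 57.7) and Jun (628 ± 78.7), while Jund and Jun lay within their spread of each other. Batf averaged 62.2 ± 7.82 and Irf4 7.61 ± 1.14 per kilobase in those cells.

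The 10 members took 0.34% to 0.79% of all gene-assigned reads in the WT libraries, 0.54% to 2.14% in the Foxp3-deficient libraries and 1.26% to 1.55% in the double-deficient libraries. All 4 double-deficient libraries were above all WT libraries, and the Foxp3-deficient libraries spanned both ranges. Junb alone took 0.22% to 0.51%, 0.38% to 1.52% and 0.79% to 1.01% of the reads in the 3 groups. In the 12 libraries, Junb made up 62.4% to 72.4% of the summed FOS and JUN family level per kilobase. The share of the 3 FOS genes was 3.40% to 10.1% in the WT group, 6.68% to 11.9% in the Foxp3-deficient group and 13.6% to 16.3% in the double-deficient group, with no overlap between the last group and the others. The share of Jund was 13.9% to 27.7%, 8.96% to 15.1% and 10.4% to 11.1% in the same order of groups. These shares describe transcripts, not protein pairs, and were not tested. In bulk RNA, fewer cells with a transcript and less of it per cell cannot be told apart.

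**Figure D1:**
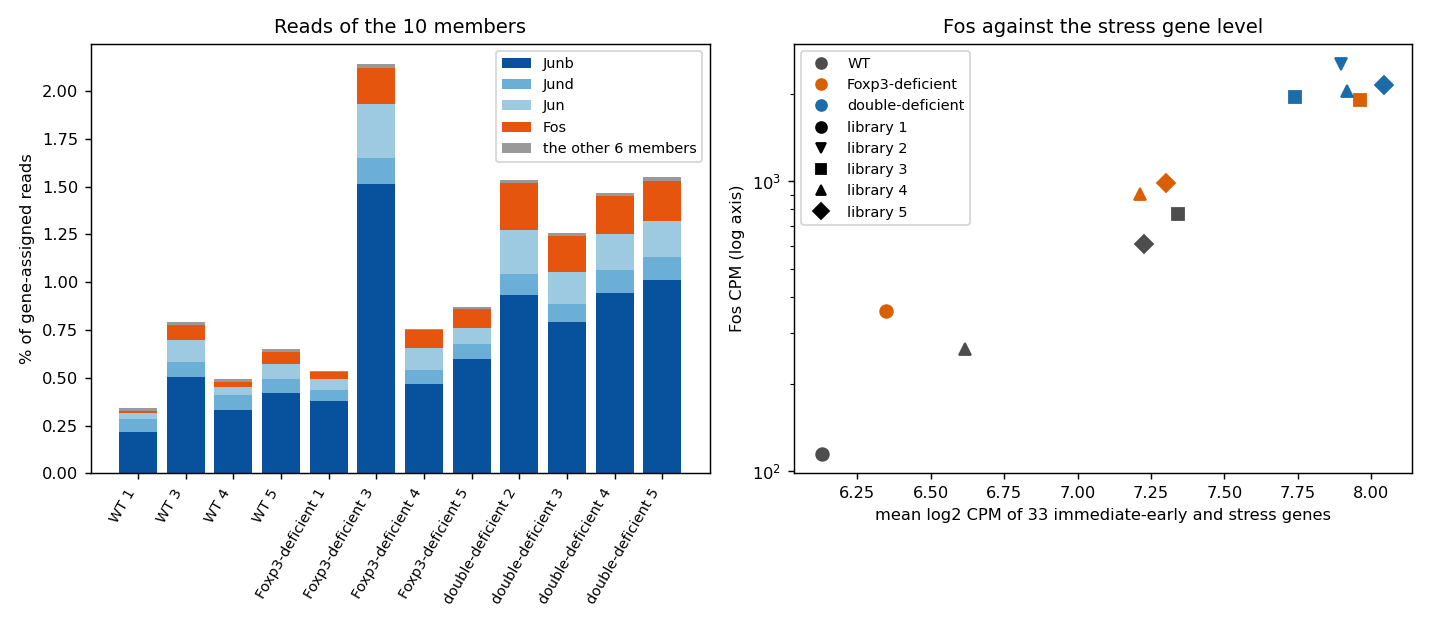
Left, percent of gene-assigned reads taken by the members in each of the 12 libraries, stacked by gene. Right, Fos CPM (log axis) against the mean log2 CPM of 33 other immediate-early and stress genes in the same libraries, coloured by group. Foxp3-deficient 3 has the tallest bar at 2.14%, and the 4 double-deficient libraries lie together at the upper right with Foxp3-deficient 3.

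Across the 9 tested members, 5 rose and none fell in double-deficient against WT cells, 2 fell and none rose in Foxp3-deficient against WT cells, and 2 rose and none fell in double-deficient against Foxp3-deficient cells. A member counted as risen or fallen where the edgeR quasi-likelihood test gave a Benjamini-Hochberg adjusted p under 0.05 over all 13196 genes. At an unadjusted p under 0.05, 3 members were higher in Foxp3-deficient against WT cells, Fosb, Junb and Atf3, and none was lower in the other 2 comparisons; DESeq2 called 2 members higher in the former and limma-voom none, and neither called a member lower in the latter. In double-deficient against WT cells 32.6% of all tested genes passed, 15.8% higher and 16.8% lower. In Foxp3-deficient against WT cells 13.7% passed, 6.99% higher and 6.74% lower. In double-deficient against Foxp3-deficient cells 27.2% passed, 13.9% higher and 13.3% lower. The median log2 fold change of the members was 1.42, 1.07 and 0.41 in these 3 comparisons, beside -0.03, 0.00 and -0.02 over all genes tested. Leaving out 1 library at a time gave 1 to 6, 0 to 3 and 1 to 5 called members in the same order, and the libraries concerned are named with each gene. The comparisons share groups, so their values are given side by side.

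**Figure D2:**
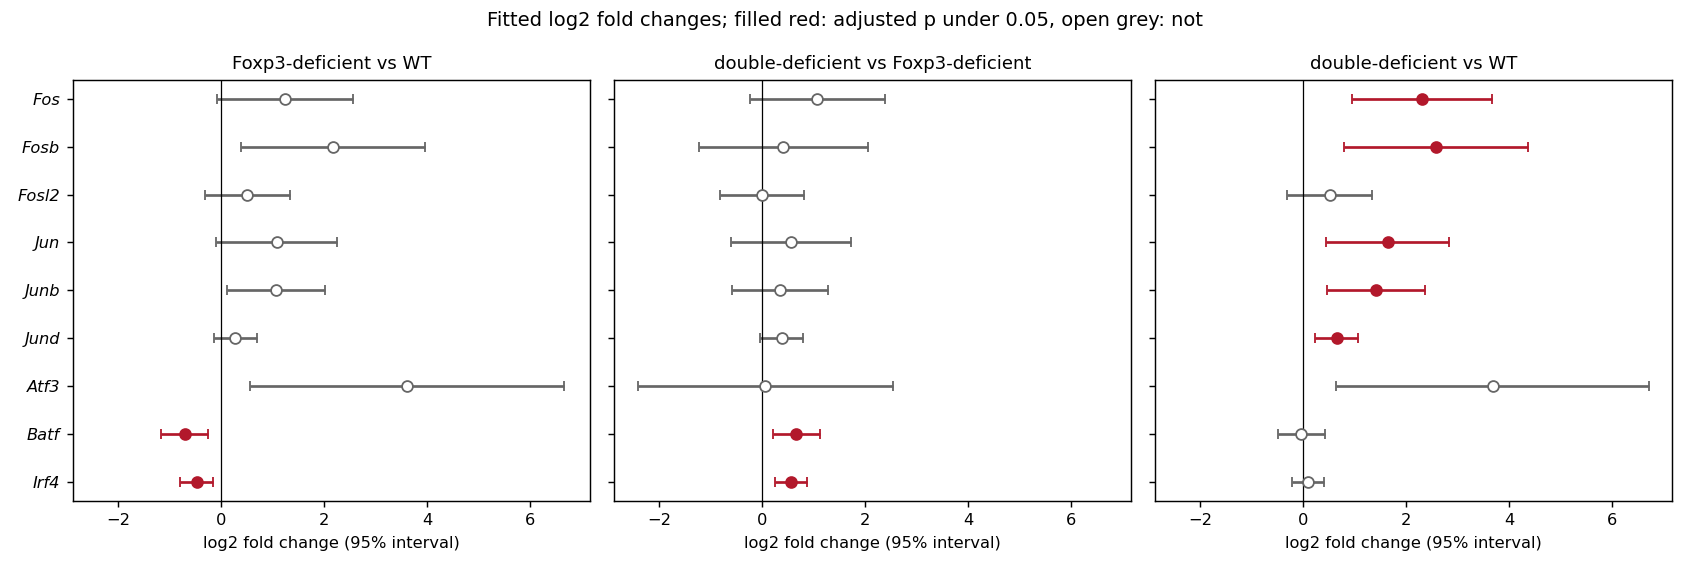
Fitted log2 fold change of each tested member (points) with its 95% interval, not adjusted for the number of genes (bars), in the 3 comparisons. Filled points passed at an adjusted p under 0.05: Batf and Irf4 in the first and second panels, and Fos, Fosb, Jun, Junb and Jund in the third.

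Fos, the founding FOS gene, was higher in every double-deficient library than in any other library. Its level was 115, 773, 264 and 608 CPM in WT 1, 3, 4 and 5. It was 357, 1906, 901 and 986 CPM in Foxp3-deficient 1, 3, 4 and 5. It was 2551, 1958, 2053 and 2151 CPM in double-deficient 2, 3, 4 and 5. Library 1 was the lowest and library 3 the highest in both the WT and the Foxp3-deficient group, and these groups overlapped, while the double-deficient libraries lay close together. Fos rose 4.95-fold from WT to double-deficient cells, a log2 fold change of 2.31 ± 0.61 (SE) with an edgeR adjusted p of 0.0168. Leaving out WT 4 gave 2.13 with an adjusted p of 0.0518. Between Foxp3-deficient and WT cells Fos differed by 1.24 ± 0.59 (adjusted p = 0.226 in edgeR, 95% interval -0.08 to 2.56). Between the mutant groups the difference was 1.07 ± 0.59 (adjusted p = 0.203, interval -0.24 to 2.38), although the libraries of these groups did not overlap.

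Fosb, a close relative of Fos, was a low transcript, and library 1 was again the lowest and library 3 the highest of the WT and of the Foxp3-deficient group. WT 1, 3, 4 and 5 had 1.59, 8.31, 2.97 and 7.62 CPM. Foxp3-deficient 1, 3, 4 and 5 had 3.74, 62.0, 13.9 and 13.1 CPM. Double-deficient 2, 3, 4 and 5 had 31.8, 18.5, 28.7 and 43.7 CPM. Foxp3-deficient 3 was the highest of the 12 libraries, and the double-deficient libraries were all above the WT libraries. Fosb rose 6.0-fold from WT to double-deficient cells (log2 2.58 ± 0.80, edgeR adjusted p = 0.0325). The call was lost without any 1 of WT 1, WT 4 or double-deficient 2, 4 or 5, with adjusted p between 0.0552 and 0.0887. Foxp3-deficient and WT cells differed by a log2 of 2.18 ± 0.80 (edgeR adjusted p = 0.110), and without Foxp3-deficient 1 by 2.53, which passed (adjusted p = 0.0396). Between double-deficient and Foxp3-deficient cells it was 0.41 ± 0.74 (adjusted p = 0.707).

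Fosl2 encodes FRA-2, a FOS protein that lacks the strong activation domain of FOS and is induced later. It ranged from 1.93 to 9.22 CPM in the WT group, 5.03 to 12.5 CPM in the Foxp3-deficient group and 5.29 to 10.1 CPM in the double-deficient group, and all 3 groups overlapped. No comparison passed. The log2 difference was 0.51 ± 0.39 for either mutant group against WT (edgeR adjusted p = 0.465 for Foxp3-deficient and 0.326 for double-deficient cells). Between the mutant groups it was 0.00 ± 0.38, with a 95% interval of -0.82 to 0.82.

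Jun, which encodes the c-Jun protein, moved as Fos did. It had 291, 1102, 427 and 754 CPM in WT 1, 3, 4 and 5. It had 549, 2881, 1155 and 869 CPM in Foxp3-deficient 1, 3, 4 and 5, and 2352, 1753, 1956 and 1954 CPM in double-deficient 2, 3, 4 and 5. The highest library was again Foxp3-deficient 3, which lay above all 4 double-deficient libraries, and the other 3 Foxp3-deficient libraries lay below them. Jun rose 3.11-fold from WT to double-deficient cells (log2 1.64 ± 0.53, edgeR adjusted p = 0.0395). This was the least stable of the 5 calls: it was lost without any 1 of WT 1, 4 or 5 or any 1 of the 4 double-deficient libraries, with adjusted p between 0.0626 and 0.102. The log2 difference was 1.08 ± 0.53 in Foxp3-deficient against WT cells (edgeR adjusted p = 0.234) and 0.56 ± 0.52 in double-deficient against Foxp3-deficient cells (adjusted p = 0.461).

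Junb, a JUN protein that pairs with BATF in T cells and is known for its part in effector Treg and Th17 programs, had the highest level of the members. WT 1, 3, 4 and 5 had 2081, 4914, 3162 and 4081 CPM. Foxp3-deficient 1, 3, 4 and 5 had 3723, 15441, 4661 and 6072 CPM. Double-deficient 2, 3, 4 and 5 had 9626, 8317, 9727 and 10390 CPM. Foxp3-deficient 3 exceeded every other library of the series. Junb rose 2.67-fold from WT to double-deficient cells (log2 1.42 ± 0.43, edgeR adjusted p = 0.0289), without overlap. The call was lost without any 1 of WT 1, 4 or 5 or double-deficient 2, 4 or 5, with adjusted p between 0.0510 and 0.0748. Between the mutant groups the log2 difference was 0.35 ± 0.42 (edgeR adjusted p = 0.569), and without Foxp3-deficient 3 it was 0.98 and passed (adjusted p = 0.0133). The Foxp3-deficient group differed from WT by 1.07 ± 0.43 (adjusted p = 0.138).

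Jund, the JUN gene known for steady expression in resting cells, had the narrowest spread among WT libraries of the FOS and JUN genes. It had 669, 757, 757 and 731 CPM in WT 1, 3, 4 and 5, a coefficient of variation of 5.73%. It had 579, 1386, 775 and 781 CPM in Foxp3-deficient 1, 3, 4 and 5, and 1162, 1003, 1196 and 1214 CPM in double-deficient 2, 3, 4 and 5. Without Foxp3-deficient 3, the WT and Foxp3-deficient levels were alike in range, and the double-deficient levels lay above both. Jund rose 1.57-fold from WT to double-deficient cells (log2 0.65 ± 0.19, edgeR adjusted p = 0.0209), and the call was lost without WT 1 or without double-deficient 5 (adjusted p 0.0600 and 0.0534). The difference from Foxp3-deficient cells was 0.38 ± 0.19 (edgeR adjusted p = 0.161), and without Foxp3-deficient 3 it was 0.69 and passed (adjusted p = 5.85e-04). From WT to Foxp3-deficient cells it was 0.27 ± 0.19 (adjusted p = 0.430), or -0.03 without Foxp3-deficient 3.

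**Figure D3:**
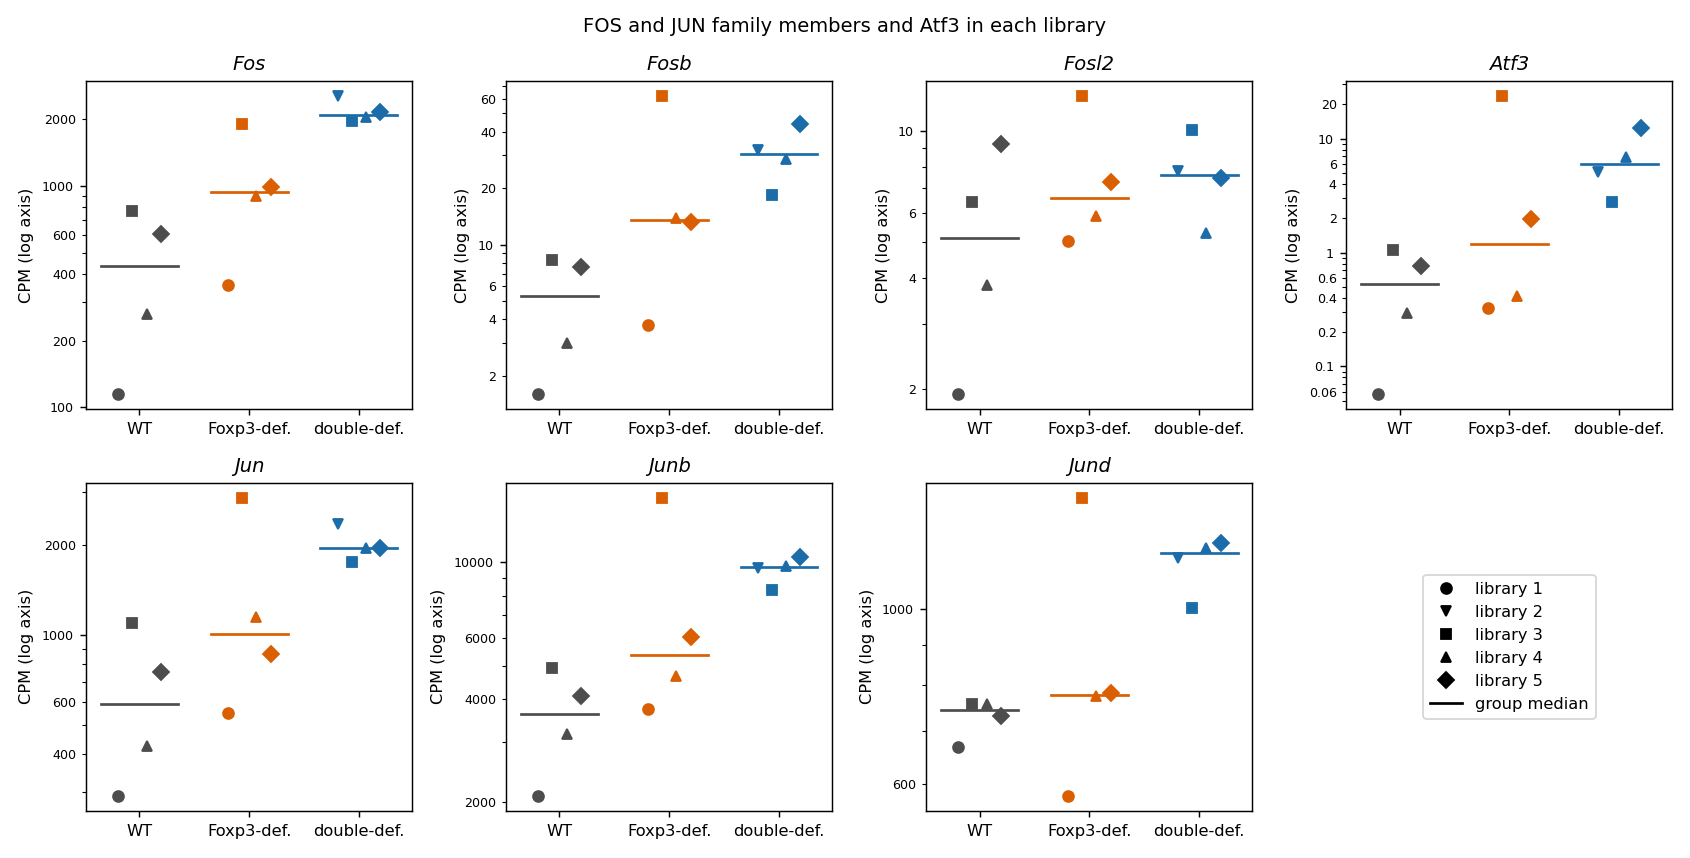
CPM (log axis) of the FOS and JUN genes and Atf3 in each library, with the symbol giving the library number and the line the group median. Foxp3-deficient 3 (square) is the highest library of its group in all 7 panels, WT 1 and Foxp3-deficient 1 (circles) are the lowest of theirs, and the double-deficient libraries lie above the WT libraries for every gene except Fosl2. The share of all genes whose libraries separate in this way was not computed, and 15.8% of all tested genes passed as higher in double-deficient against WT cells.

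Atf3, a stress-induced factor that pairs with JUN proteins, rested on few reads. It had 1, 17, 8 and 18 reads in WT 1, 3, 4 and 5, and 6, 387, 8 and 45 reads in Foxp3-deficient 1, 3, 4 and 5. Double-deficient 2, 3, 4 and 5 had 103, 62, 148 and 229 reads. In CPM the range was 0.06 to 1.05 in the WT group, 0.32 to 23.8 in the Foxp3-deficient group and 2.79 to 12.5 in the double-deficient group. The double-deficient libraries were all above the WT libraries, and the high mean of the Foxp3-deficient group (6.61 ± 11.5 CPM, SD, n = 4) came from library 3. The log2 difference of 3.68 ± 1.37 between double-deficient and WT cells did not pass (edgeR adjusted p = 0.0630). It passed without Foxp3-deficient 1, 3 or 4, with adjusted p between 0.00133 and 0.0394. The same difference passed in DESeq2 (adjusted p = 0.0111) and in an edgeR fit of only the groups compared (adjusted p = 4.22e-04). It did not pass in limma-voom (adjusted p = 0.0510) or in edgeR without the low-count filter (adjusted p = 0.133). Against Foxp3-deficient cells the difference was 0.06 ± 1.12 (edgeR adjusted p = 0.972), and without Foxp3-deficient 3 it was 2.88 and passed (adjusted p = 0.00945). From WT to Foxp3-deficient cells it was 3.61 ± 1.37 (adjusted p = 0.120).

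Batf fell in Foxp3-deficient cells and rose again in double-deficient cells, to a mean of 87.5 CPM against 89.8 CPM in WT cells. WT 1, 3, 4 and 5 had 85.1, 80.2, 92.6 and 102 CPM. Foxp3-deficient 1, 3, 4 and 5 had 28.3, 61.3, 54.4 and 76.3 CPM, and double-deficient 2, 3, 4 and 5 had 73.2, 94.0, 84.9 and 98.0 CPM. Every Foxp3-deficient library was below every WT library, and only Foxp3-deficient 5 reached into the double-deficient range. Batf fell 1.63-fold in Foxp3-deficient against WT cells (log2 -0.71 ± 0.22, edgeR adjusted p = 0.0434). The call stood near the threshold: it was lost without any 1 of the 4 WT libraries, Foxp3-deficient 3 or 4, or double-deficient 3 or 4, with adjusted p between 0.0502 and 0.112. Batf rose 1.59-fold in double-deficient against Foxp3-deficient cells (log2 0.67 ± 0.22, edgeR adjusted p = 0.0346), a call lost without Foxp3-deficient 4 or double-deficient 3, 4 or 5 (adjusted p between 0.0557 and 0.0823). Double-deficient and WT cells differed by -0.04 ± 0.21 on the log2 scale (edgeR adjusted p = 0.906), with a 95% interval of -0.50 to 0.42.

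Batf3, which in T cells can pair with JUN proteins much as BATF does, had 0 reads in all 8 WT and Foxp3-deficient libraries. It had 1 read in double-deficient 3 and 2 reads in double-deficient 5. These 3 reads are no more than the 3 that a count of 0 allows, so no level or fold is given.

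Irf4, the partner of BATF-JUN pairs, fell and rose in the same comparisons as Batf. It had 33.8, 33.0, 38.7 and 35.2 CPM in WT 1, 3, 4 and 5. It had 27.4, 27.0, 18.0 and 29.0 CPM in Foxp3-deficient 1, 3, 4 and 5, and 44.0, 39.9, 32.6 and 32.9 CPM in double-deficient 2, 3, 4 and 5. All 4 Foxp3-deficient libraries lay below all 8 others. Irf4 fell 1.39-fold in Foxp3-deficient against WT cells (log2 -0.47 ± 0.15, edgeR adjusted p = 0.0431). That call was lost without any 1 of the 4 WT libraries, Foxp3-deficient 4 or double-deficient 3, with adjusted p between 0.0527 and 0.128. Irf4 rose 1.47-fold in double-deficient against Foxp3-deficient cells (log2 0.56 ± 0.15, edgeR adjusted p = 0.0132), and this call was kept whichever of the 12 libraries was left out (adjusted p 0.00960 to 0.0369). Double-deficient and WT cells differed by 0.08 ± 0.15 (edgeR adjusted p = 0.686, 95% interval -0.23 to 0.39). IRF4 is also high in plasma cells, whose markers moved too: the 4 of 5 marker genes in the table summed to 204 to 221 CPM in the WT group, 161 to 193 in the Foxp3-deficient group and 188 to 215 in the double-deficient group. Xbp1, a transcription factor of secretory cells, made up most of that sum and fell in Foxp3-deficient against WT cells (log2 -0.27 ± 0.08, edgeR adjusted p = 0.0284). Of the 3 that were tested, the other two rose in double-deficient against Foxp3-deficient cells, Jchain, which links antibody subunits, from a mean of 0.902 to 11.6 CPM and Sdc1, a surface marker of plasma cells, from 1.01 to 2.19 CPM (edgeR adjusted p = 0.00186 and 0.0300). Against WT, 2 of the 3 tested markers also rose in double-deficient cells, with a median log2 fold change of 1.73 over the 3, where Irf4 was at 0.08. The part of the plasma cell markers in the Irf4 values was not tested.

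**Figure D4:**
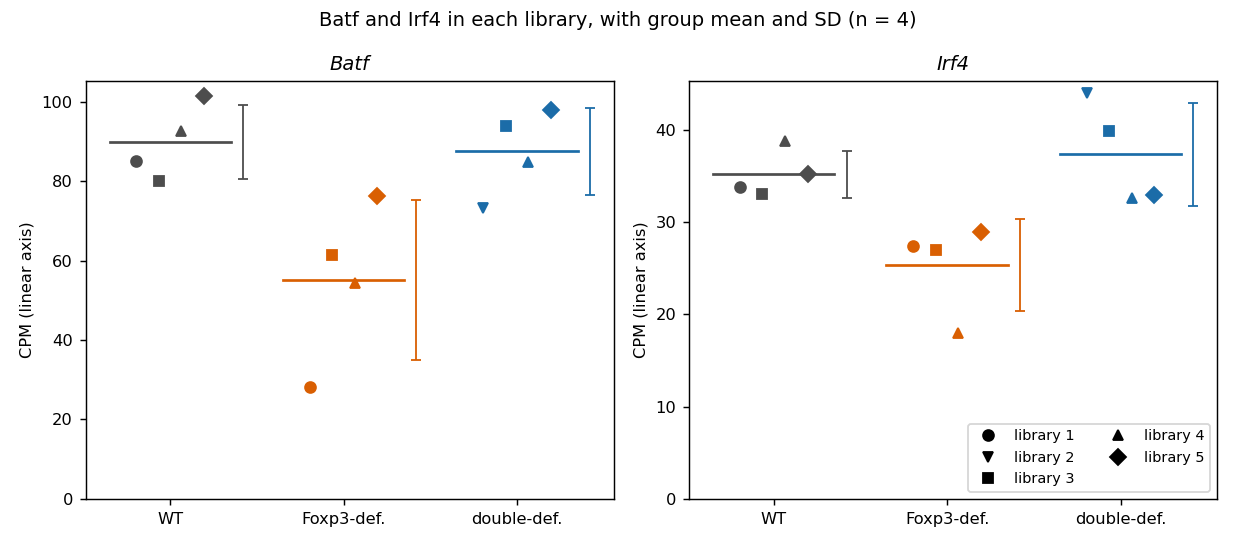
CPM (linear axis from 0) of Batf and Irf4 in each library, with the group mean (line) and SD (bar, n = 4). The Foxp3-deficient libraries lie below the WT libraries for both genes, at a mean of 55.1 against 89.8 CPM for Batf and 25.3 against 35.2 CPM for Irf4.

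The spread between libraries differed between the members. In the Foxp3-deficient group, library 3 was the highest for 7 of the 9 tested members and library 1 the lowest for 8, Irf4 being the exception among the lowest. In the WT group, library 1 was the lowest for 7 members and the highest for none. Within the double-deficient group Fos varied 1.30-fold from lowest to highest library, against 6.74-fold in WT and 5.34-fold in Foxp3-deficient cells. Junb varied 1.25-fold, 2.36-fold and 4.15-fold in the same groups. Batf and Irf4 varied 1.27-fold and 1.17-fold in WT, 2.70-fold and 1.61-fold in Foxp3-deficient, and 1.34-fold and 1.35-fold in double-deficient cells.

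A list of 35 other immediate-early and isolation stress genes, such as Egr1, Dusp1, Nr4a1 and heat shock genes, moved with the FOS and JUN genes. Over the 33 that were tested, the mean log2 CPM was 6.13, 7.34, 6.62 and 7.23 in WT 1, 3, 4 and 5. It was 6.35, 7.96, 7.21 and 7.30 in Foxp3-deficient 1, 3, 4 and 5, and 7.90, 7.74, 7.92 and 8.04 in double-deficient 2, 3, 4 and 5. The same libraries were lowest and highest as for Fos in the WT and Foxp3-deficient groups. In double-deficient against WT cells 15 of the 33 rose and 4 fell, with a median log2 fold change of 0.85. That count of risen genes was 9 without WT 1, 8 without WT 4 and 7 without double-deficient 5. Ier3, an early response gene, rose by 2.90 ± 0.46, and Klf2, a factor of quiescent and migrating T cells, by 0.89 ± 0.14 on the log2 scale (edgeR adjusted p = 2.68e-04 and 3.33e-04). Dusp2, a phosphatase that acts on MAP kinases, rose by 0.92 ± 0.16 (adjusted p = 5.51e-04). Against Foxp3-deficient cells, 5 of the list rose and 1 fell in double-deficient cells. The risen genes numbered 12 without Foxp3-deficient 3, 3 without double-deficient 2 or 3, and 2 without any 1 of Foxp3-deficient 4 or 5 or double-deficient 4 or 5. The fallen gene, Zfp36l1, was lost without Foxp3-deficient 4 or double-deficient 3. With Foxp3 loss alone 2 rose against WT, Klf10 and Klf2, and Egr2 fell, and 5 rose without Foxp3-deficient 1 and 4 without Foxp3-deficient 4. A second gene fell without any 1 of WT 1, WT 5 or Foxp3-deficient 1.

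When the mean level of the 33 stress genes was added to the fit as a covariate, Fos still rose in double-deficient against WT cells, by 0.76 on the log2 scale (edgeR adjusted p = 0.0140). The other 4 calls were lost: Fosb was at 0.29, Jun at 0.27, Junb at 0.28 and Jund at 0.09, with adjusted p between 0.426 and 0.792. In the same fit Fos, Fosb and Junb passed in Foxp3-deficient against WT cells, at 0.68, 0.93 and 0.52 (edgeR adjusted p = 0.00290, 0.00278 and 0.0294). Batf still fell there (-0.91, adjusted p = 0.00617), while Irf4 was at -0.46 (adjusted p = 0.0555). Irf4 still rose in double-deficient against Foxp3-deficient cells (0.59, edgeR adjusted p = 0.0428), Batf was at 0.42 (adjusted p = 0.207) and Fosb was lower (-0.65, adjusted p = 0.0354). Many genes of the list are induced by the same signals as Fos and Jun, and where the level follows the groups, isolation stress and genotype cannot be told apart.

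**Figure D5:**
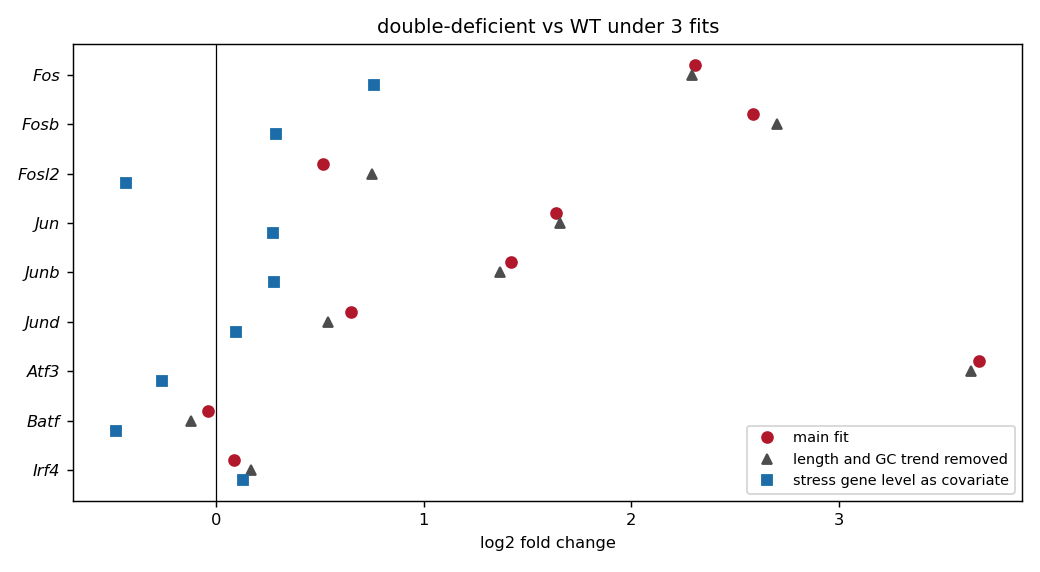
Log2 fold change of each member in double-deficient against WT cells in the fit without covariates (circles), after the trend of each library with transcript length and GC content was removed (triangles), and with the stress gene level as a covariate (squares). Fos moves from 2.31 to 0.76 with the covariate, and Junb from 1.42 to 0.28.

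The other bZIP genes, which include the CREB, MAF, NFE2 and C/EBP families and can pair with some of the members, showed no common direction. Of 22 tested, 3 rose and none fell in Foxp3-deficient against WT cells (2 were lower at an unadjusted p under 0.05 in edgeR, DESeq2 and limma-voom each called 1, and 1 fell without WT 1 or Foxp3-deficient 5). The risen genes were Nfe2l2, the regulator of the oxidative stress response (log2 0.69 ± 0.09, edgeR adjusted p = 9.29e-05), Mafk (0.82 ± 0.19) and Maf (0.37 ± 0.12). The Maf call was lost in 9 of the 12 fits that left out 1 library. In double-deficient against WT cells 3 rose and 4 fell, 5 rising without Foxp3-deficient 3, with Nfe2l2 at 0.55 ± 0.09, and the low transcripts Cebpd at 2.07 ± 0.48 and Cebpa at -2.39 ± 0.56. Mafg and Atf7 fell in double-deficient against Foxp3-deficient cells, and Crem, a cAMP-responsive factor, rose by 0.69 ± 0.20. Without Foxp3-deficient 3 those counts were 6 risen and 5 fallen, without Foxp3-deficient 5 there were 3 risen genes, and Crem was lost without Foxp3-deficient 1 or 4. The median log2 fold change of the list was 0.15, -0.18 and 0.16 for Foxp3-deficient against WT, double-deficient against Foxp3-deficient and double-deficient against WT cells.

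Of 12 tested IRF genes and partners of IRF4, 3 rose and 2 fell in Foxp3-deficient against WT cells. Ikzf1, which encodes Ikaros, rose by 0.69 ± 0.08, Irf8 fell by 0.87 and Irf5 fell by 1.20 on the log2 scale (edgeR adjusted p at most 4.12e-04). Irf8 is also high in B and dendritic cells. Against Foxp3-deficient cells 2 rose in double-deficient cells, Irf5 by 0.74 ± 0.19 and Ikzf3, which encodes Aiolos, by 0.30 ± 0.08. Ikzf1 fell there by 0.26, a call lost without Foxp3-deficient 4 or double-deficient 3 or 5. Against WT, Ikzf3 (0.70 ± 0.08) and Ikzf1 (0.43 ± 0.08) rose and Irf8 (-0.70 ± 0.11) fell in double-deficient cells. A second gene fell without any 1 of WT 5, Foxp3-deficient 3 or 5, or double-deficient 3. The B cell markers, given above, were also lower in both mutant groups than in WT, and 5 of their 6 tested members fell in each of those comparisons; their part in the Irf8 and Irf5 values was not tested.

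The kinases and factors that act before AP-1 in the MAP kinase cascades showed more fallen than risen genes in the double-deficient group. Of 29 tested, 8 fell and 1 rose in double-deficient against WT cells, where 16.8% of all genes fell, with a median log2 fold change of -0.14. Map3k5 (ASK1), Mapk9 (JNK2) and Map3k1 (MEKK1), kinases of the JNK and p38 cascades, fell by 0.72, 0.56 and 0.56 on the log2 scale (edgeR adjusted p at most 0.00203). After the trend with transcript length and GC content was removed 5 fell, and 3 fell with the stress gene level as a covariate. No gene of the list rose without WT 3. Against Foxp3-deficient cells, 9 fell and 1 rose in double-deficient cells, where 13.3% of all genes fell and 13.9% rose. Map3k5 fell by 0.61, Rasgrp1, which links T cell receptor signals to RAS, by 0.59 and Elk4, a partner of serum response factor, by 0.49. The count of fallen genes was 4 without double-deficient 5, and 2 genes rose without Foxp3-deficient 5. Without the low-count filter 5 fell, and 4 fell with library number as a block and the length and GC trend removed. With Foxp3 loss alone Rasgrp1 (0.42 ± 0.11) and Mapk14, which encodes p38 alpha (0.29 ± 0.08), were among 3 risen genes, and Map3k8 (-0.83 ± 0.15) was among 2 fallen genes. Only 1 gene rose without any 1 of WT 3, 4 or 5, and 1 fell in 9 of the 12 fits that left out 1 library.

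NFAT factors bind with AP-1 at many T cell activation genes, and calcineurin activates them. Of 10 tested genes of this group, 4 fell and 1 rose in double-deficient against WT cells, where 16.8% of all genes fell and 15.8% rose. The median log2 fold change of the 10 was 0.007, beside -0.03 over all genes tested. Among the fallen genes, Nfatc2, Nfatc1 and Nfat5 fell by 0.67, 0.43 and 0.62 on the log2 scale (edgeR adjusted p at most 0.0106). After the trend with length and GC content was removed, 1 gene of this group fell and 2 rose, and 1 fell with the stress gene level as a covariate. The risen gene was lost without any 1 of WT 3 or double-deficient 3 or 4, and 2 rose without Foxp3-deficient 1. In double-deficient against Foxp3-deficient cells 4 fell, Nfatc2 by 0.75 and the calcineurin subunit gene Ppp3r1 by 0.23 among them, and the calcineurin inhibitor Rcan1 rose by 0.35 ± 0.11. The fallen genes numbered 1 without double-deficient 5 and 2 without any 1 of Foxp3-deficient 1, 4 or 5 or double-deficient 2, 3 or 4, and Rcan1 was lost without Foxp3-deficient 4 or double-deficient 3, 4 or 5. Against WT, Foxp3-deficient cells had 3 changes: Nfatc3 (0.44 ± 0.10) and Ppp3r1 (0.26 ± 0.07) rose and Ppp3ca (-0.40 ± 0.10) fell, Ppp3r1 being lost without any 1 of WT 1, 3 or 4 or Foxp3-deficient 5.

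Genes of effector Treg and helper T cells, programs in which BATF, JUN proteins and IRF4 are known to act, changed in both directions. Of 33 tested, 10 rose and 16 fell in Foxp3-deficient against WT cells, where Batf and Irf4 fell, with a median log2 fold change of -0.91. The costimulatory receptors Tnfrsf9 and Tnfrsf4 fell by 1.99 and 1.81 on the log2 scale (edgeR adjusted p at most 9.35e-08). In double-deficient against Foxp3-deficient cells, where Batf and Irf4 rose, 12 of the 33 rose and 4 fell, 7 falling without Foxp3-deficient 3 and 8 after the trend with length and GC content was removed. Tnfrsf18 (GITR) rose by 1.07 ± 0.15, and Bcl6 and Myb fell by 1.72 and 1.29. In double-deficient against WT cells 10 rose and 13 fell, with Tnfrsf9 at -2.20 ± 0.10 and Bcl6 at -1.59 ± 0.14. Tnfrsf9 was low in both mutant groups (77.6 ± 4.48 CPM in double-deficient and 90.1 ± 13.3 in Foxp3-deficient, against 357 ± 27.2 in WT cells). The part of Batf and Irf4 in the levels of these genes was not tested.

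Genes whose pattern over the 12 libraries was most like that of Fos were found by the root mean square difference of centred log2 CPM, among 8374 genes that averaged 10 CPM or more. They were Bambi (0.38), Dnajb1 (0.52), Siah2 (0.55), Dusp1 (0.56) and Sap30 (0.56 log2 units). Bambi, a pseudoreceptor of the TGF-beta family, averaged 5.99 ± 3.69, 12.7 ± 11.6 and 31.4 ± 4.13 CPM in the WT, Foxp3-deficient and double-deficient groups. Dnajb1 is a heat shock protein and Dusp1 a MAP kinase phosphatase, and both belong to the stress list above. Nearest to Batf were Sh2d1a (0.14), Tmbim4 (0.15), Hopx (0.16), Lamtor4 (0.16) and Fam162a (0.17). Sh2d1a, which encodes the adaptor SAP, averaged 94.6 ± 7.67, 53.1 ± 17.2 and 95.1 ± 14.8 CPM in the 3 groups, close to the course of Batf. Nearest to Irf4 were Xdh (0.17), C920025E04Rik (0.18), Casc4 (0.19), Zfp667 (0.19) and Spred1 (0.20), the last an inhibitor of RAS signalling. The points share libraries and depth, and a small difference is easier to reach for a gene that varies little, as Irf4 does (SD of log2 CPM 0.33, against 0.51 for Batf and 1.41 for Fos).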

How the data were processed

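The authors deposited raw counts, whole reads per gene that had not been normalized. STAR 2.5.1b aligned the reads to mm10 (GRCm38) and HTSeq counted them, per the submitters' processing notes, and per the labels cDNA came from the SMART-Seq v4 low-input kit. The strand setting, the annotation release and the version of HTSeq were not given in the sources used here. Summary lines of the table (3) stayed out of library sizes.

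After filterByExpr and TMM scaling, edgeR 4.0.16 (R 4.3.3) was run on the counts (robust quasi-likelihood test, 1 fit over 12 libraries, no covariates), with p-values adjusted over 13196 genes. The biological coefficient of variation was 17.4%. CPM used TMM-scaled totals. Lengths came from GENCODE M21, to which 97.4% of genes matched. The steps were tested on simulated counts. Intervals cover 95%. Read counts carry counting error only where a read floor is given. The members and lists were chosen with earlier results of these data known, and the motifs TGACG and TGACNTCA were added after the sequences were seen. From each list, up to 3 called genes with the smallest adjusted p were named per comparison, and the genes nearest to Fos, Batf and Irf4 by pattern. Genes named beyond that rule serve as examples of a list, and some genes that the rule names are not reported here.

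Alternatives were other scalings (RLE, upper quartile), no filter, a stricter filter, limma-voom (limma 3.58.1), DESeq2 1.42.0, a fit of the compared groups alone, the replicate block, removal of length and GC trends, the stress gene covariate and leaving out libraries.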

Additional observations from a re-analysis of the deposited data

Results flagged for a closer look

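The level of Atf3 in Foxp3-deficient 3 was 23.8 CPM, and it stood apart from the other 3 libraries of its group, which had 0.32 to 1.95 CPM. The gap to the nearest library was 0.93 of the whole range of the group, above the 95% critical value of Dixon's test for 4 libraries. It was the only 1 of 33 groups of 4 values to do so, those of Foxp3 and Rictor included. Chance alone gives about 1 in 20 such groups, so 1 flag among 33 is no more than chance would give. The same library was the highest of its group for Fos, Fosb, Fosl2, Jun, Junb and Jund, without passing that limit.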

How the results depend on the processing

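Of 672 recomputed log2 fold changes of the 9 tested members, 563 kept their direction and their side of the threshold, 60 lost the call, 22 gained one and 27 changed sign. RLE scaling, upper quartile scaling, the stricter filter and limma-voom left the counts of members called at 2 in Foxp3-deficient against WT, 2 in double-deficient against Foxp3-deficient and 5 in double-deficient against WT cells. Without the low-count filter each count was 1. DESeq2 gave 4 in the first comparison and 6 in the third, and a fit of only the groups compared gave 0 in the first and 1 in the second. In the third, that fit called Fos, Fosb, Jun, Junb, Jund and Atf3, at edgeR adjusted p from 1.30e-05 (Jund) to 0.0220 (Fos). With the stress gene covariate the counts were 4 in the first and 1 in the third. Leaving out Foxp3-deficient 1 and 3 together, or WT 1 and Foxp3-deficient 1 together (chosen after seeing the data), gave 1 in the first. Without Foxp3-deficient 1 and 3, Fos, Fosb, Jun, Junb, Jund and Atf3 passed in the third, at edgeR adjusted p from 7.59e-06 (Jund) to 0.0125 (Fos). Leaving out 1 library gave 0 to 3, 1 to 5 and 1 to 6 members. The library numbers fell short of the rule for pairing, which asks for every same-numbered pair over 0.1: in Foxp3-deficient against WT cells 3 of 4 same-numbered pairs had deviations correlated over 0.1 (0.03 to 0.20; WT 4 correlated best with Foxp3-deficient 1, at 0.19), and none of 3 did in the other comparisons (-0.04 to 0.06 and -0.05 to 0.04). The replicate block joined libraries of the same number across all groups, double-deficient ones included, so it does not test pairing of WT and Foxp3-deficient cells alone. With the replicate block Fos passed in Foxp3-deficient against WT cells (log2 1.34 ± 0.25, edgeR adjusted p = 0.00809), where the count was then 3, Atf3 passed (3.97, adjusted p = 0.0488) and Jund did not (0.54, adjusted p = 0.0646) in double-deficient against WT cells. The count with the block was 1 in double-deficient against Foxp3-deficient cells, where Irf4 was at 0.49 (edgeR adjusted p = 0.0561) and Fosl2 at -0.26, Irf4 in double-deficient against WT cells was at -0.00330, and with the block and the length and GC trend removed 4 members were called in Foxp3-deficient against WT cells, Fosl2 was at -0.049 and Rictor in double-deficient against WT cells at 0.20.

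The changes of sign concerned values near 0 or the stress gene covariate. In double-deficient against Foxp3-deficient cells the covariate gave -0.65 for Fosb, -0.63 for Fosl2, -0.19 for Jun, -0.24 for Junb and -1.18 for Atf3. In double-deficient against WT cells it gave -0.44 for Fosl2, -0.26 for Atf3 and 0.068 for Rictor. With the length and GC trend removed Atf3 was at -0.052 between the mutant groups and Rictor at 0.20 between double-deficient and WT cells. Fosl2 between the mutant groups was at -0.000504 in the fit of only those groups, and without WT 1 and Foxp3-deficient 1 it was at -0.15 and Atf3 at -0.33. Leaving out 1 library gave -0.15 to 0.33 for Fosl2 and -0.40 to 2.88 for Atf3 between the mutant groups. It gave -0.033 to 0.43 for Jund in Foxp3-deficient against WT cells, and -0.095 to 0.039 for Batf and -0.00165 to 0.15 for Irf4 in double-deficient against WT cells. Beyond what the construction of a fit shows, the cause was not tested. Depth limits Batf3 (0 to 2 reads per library) and Atf3 (1 read in WT 1).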
